A study of Mus musculus with 4 samples.

Results

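The matrix metalloproteinases and their tissue inhibitors were followed through 4 mouse macrophage libraries as 9 genes chosen by name, 6 proteases (Mmp8, Mmp9, Mmp12, Mmp13, Mmp14 and Mmp19) and 3 inhibitors (Timp1, Timp2 and Timp3), out of 16403 genes listed in the series. The 9 were chosen with earlier results of these data known, which limits setting their calls beside shares over all genes. All 9 genes were listed in all 4 libraries, and all 9 averaged at least 1 FPKM, a read count scaled by transcript length and library size. The cells were peritoneal macrophages of C57BL/6 mice drawn out with 4% thioglycolate and collected, by the sample labels, 4 days later. They adhered for 4 h and were then held in medium with 0.5% serum. The wild-type group was left untreated or was exposed for 6 h to IL-4, a cytokine, at 20 ng/mL, and so was the group with a conditional deletion of Trim24 (TIF1a) in myeloid cells, made by crossing floxed Trim24 mice with LysM-Cre mice. Each of the 4 groups holds 1 library, so differences have no replicate check, and a test on reads sets libraries, not conditions, against each other. Intervals are 95% exact intervals of the counts, except those of differences of IL-4 responses, which use a normal approximation. All cover counting error only. Reads without molecular identifiers are not independent molecules, so the intervals can be too narrow even for that error. In bulk RNA, fewer cells of a type and less RNA per cell cannot be told apart.

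Matrix metalloproteinases are zinc-dependent endopeptidases that are made as inactive proenzymes and cut collagen, elastin, other matrix proteins and many secreted or membrane-bound proteins. Tissue inhibitors of metalloproteinases, the Timps, bind the active site of the mature enzymes and also take part in the activation of some proenzymes at the cell surface. Macrophages are a known source of several of these enzymes, and Mmp12 is also called macrophage elastase. The M2 state, or alternative activation, which macrophages enter under IL-4, is known for tissue repair and matrix turnover.

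The 4 upstream stretches below are shown because they belong to the 3 genes that were called higher with IL-4 in the wild-type libraries. Each runs 5′ to 3′ on the plus strand over the 250 bases before a transcript start in RefSeq on GRCm38.p6. Capitals mark the AP-1 letters TGACTCA or TGAGTCA and the TATA letters TATAAA or TTTATA, each pair being the same motif read on the 2 strands.
Mmp13, chr9:7272264-7272513: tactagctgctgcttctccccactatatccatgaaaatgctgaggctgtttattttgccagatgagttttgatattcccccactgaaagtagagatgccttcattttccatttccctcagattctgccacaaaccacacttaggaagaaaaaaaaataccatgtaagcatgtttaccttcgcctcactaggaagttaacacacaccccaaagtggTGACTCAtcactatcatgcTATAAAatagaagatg
Mmp12, first start, chr9:7344147-7344396: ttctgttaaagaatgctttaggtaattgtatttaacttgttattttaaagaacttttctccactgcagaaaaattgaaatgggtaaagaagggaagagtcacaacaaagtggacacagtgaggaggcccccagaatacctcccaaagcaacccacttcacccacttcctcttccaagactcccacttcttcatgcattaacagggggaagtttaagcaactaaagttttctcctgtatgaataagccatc
Mmp12, second start, chr9:7347124-7347373: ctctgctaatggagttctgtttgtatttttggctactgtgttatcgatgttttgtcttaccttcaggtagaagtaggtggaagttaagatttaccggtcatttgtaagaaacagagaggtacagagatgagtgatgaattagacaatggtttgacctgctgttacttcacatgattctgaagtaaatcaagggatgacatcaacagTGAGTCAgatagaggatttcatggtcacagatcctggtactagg
Timp1, chrX:20869916-20870165: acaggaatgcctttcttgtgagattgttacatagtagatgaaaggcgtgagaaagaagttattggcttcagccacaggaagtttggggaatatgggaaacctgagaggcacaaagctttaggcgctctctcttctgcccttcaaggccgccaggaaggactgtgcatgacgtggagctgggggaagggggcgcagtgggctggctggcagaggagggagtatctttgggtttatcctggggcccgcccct

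In the Mmp13 stretch the AP-1 letters began 35 bases before the start and the TATA letters 16 bases before it. In the stretch of the second Mmp12 start the AP-1 letters began 44 bases before the start, and in the stretches of the first Mmp12 start and of Timp1 neither motif was found. Of the 9 genes, 7 had a stretch in the RefSeq table (8 stretches, since Mmp12 has 2 starts); Mmp9 and Mmp19 had none. The AP-1 letters were in 2 of these 8 stretches and in 4.46% of all 32851 stretches of that length. The TATA letters were in 1 of the 8, that of Mmp13, and in 12.4% of all. The letters TTCNNNNGAA, the spacing to which Stat6 binds, were in 0 of the 8 stretches and in 5.85% of all. The letters TTCNNNGAA, the spacing of the other Stat factors, were in 0 of the 8 and in 7.02% of all. The Stat motifs read the same on both strands. These matches describe the letters in the windows and were not tested against binding.

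The targeted gene was checked first. Trim24 had 175 expected reads in the untreated wild-type library, 103 in the IL-4 wild-type library, 4 in the untreated knockout library and 10 in the IL-4 knockout library, low in both knockout libraries as their labels say. Totals ran from 11026033 to 11250099 expected reads, and 3 reads, taken as the floor, correspond to 0.267 to 0.272 CPM, the reads scaled to library size. All 7 macrophage markers were present, with Cd68 at 3005 to 3465 FPKM and Adgre1 at 68.5 to 97.7 FPKM. Lyz2, the lysozyme gene whose promoter drives LysM-Cre, was at 11289 and 10811 FPKM in the wild-type libraries and at 5193 and 4761 FPKM in the knockout libraries. The ratios between libraries moved with transcript length: across 10443 genes Spearman's rho was -0.37 for the wild-type IL-4 comparison and 0.52 for knockout against wild-type under IL-4. For the 9 genes that trend came to no more than 0.18 on the log2 scale in any comparison.

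Levels per length spanned more than 3 orders of magnitude, with Mmp12, Timp2, Mmp14 and Mmp19 in this order at the top of every library. Mmp12 was at 755 FPKM (untreated) and 1170 FPKM (IL-4) in the wild-type and at 607 FPKM (untreated) and 882 FPKM (IL-4) in the knockout. By FPKM it ranked between 44 and 101 among all genes, and it took 0.221% to 0.426% of all reads. Timp2, an inhibitor of most soluble metalloproteinases, was second at 226, 256, 243 and 260 FPKM in the untreated wild-type, IL-4 wild-type, untreated knockout and IL-4 knockout libraries, the order kept for each list of 4 values below. Mmp14, the membrane-anchored collagenase MT1-MMP, was at 89.8, 63.3, 68.4 and 59.99 FPKM. Mmp19, a secreted enzyme with a broad choice of matrix substrates, was at 22.4, 25.2, 24.3 and 35.9 FPKM. The intervals of these 4 genes did not overlap one another in any library.

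**Figure D1:**
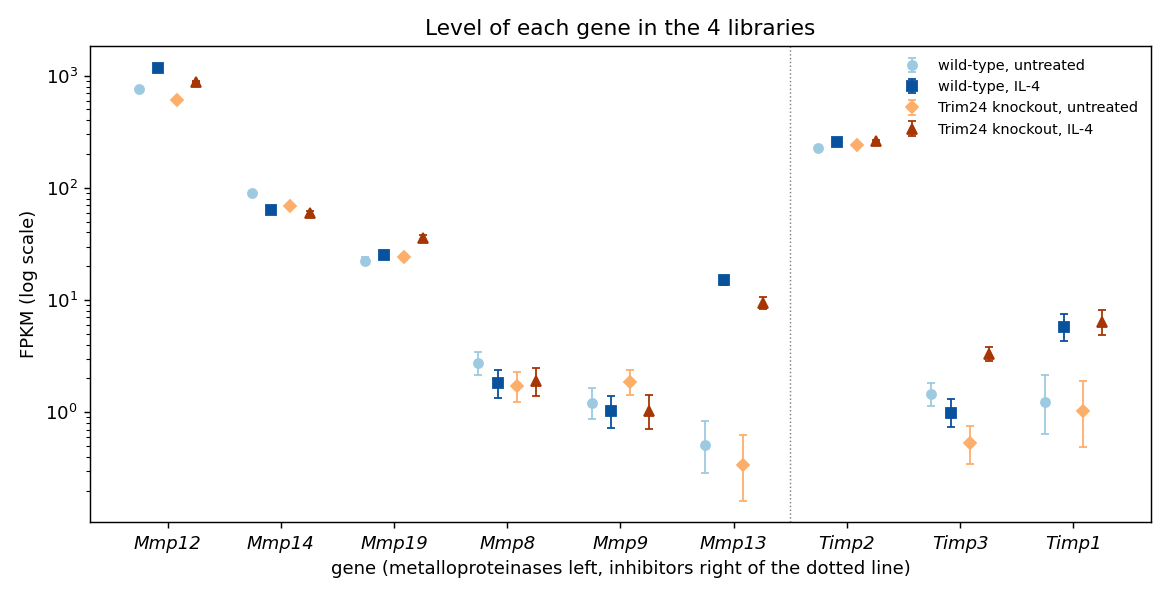
Level of each of the 9 genes in FPKM (log axis) in the 4 libraries, 1 library a group, with 95% exact Poisson intervals of the counts as bars. Mmp12 stood highest in all 4 libraries, at 607 to 1170 FPKM, while Mmp13 moved from 0.51 and 0.34 FPKM untreated to 15.04 and 9.46 FPKM with IL-4.

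The other 5 genes lay between 0.34 and 15.04 FPKM, and their order changed between libraries. In the untreated wild-type library Mmp8 (2.73 FPKM) came before Timp3 (1.46), Timp1 (1.23), Mmp9 (1.21) and Mmp13 (0.51). The intervals of Timp3, Timp1 and Mmp9 overlapped one another there, and that of Timp1, at 12 reads, overlapped those of Mmp8 and Mmp13 as well. In the IL-4 wild-type library Mmp13 (15.04 FPKM) and Timp1 (5.74) stood above Mmp8 (1.81), Mmp9 (1.02) and Timp3 (0.99), and the intervals of Mmp8 and Mmp9 and those of Mmp9 and Timp3 overlapped. In the untreated knockout library the intervals of each neighbouring pair from Mmp9 (1.86 FPKM) through Mmp8, Timp1 and Timp3 to Mmp13 (0.34) overlapped. In the IL-4 knockout library the order was Mmp13 (9.46 FPKM), Timp1 (6.32), Timp3 (3.31), Mmp8 (1.88) and Mmp9 (1.02), and only the intervals of Mmp8 and Mmp9 overlapped.

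The question of the first comparison was how IL-4 changed these genes in wild-type macrophages. A gene was called where the 2 libraries differed by Fisher's exact test at a Benjamini-Hochberg adjusted p under 0.05 over all genes tested and the ratio on the log2(FPKM + 0.1) scale passed 1.5-fold. Of the 9 genes, 3 were called higher with IL-4 (Mmp12, Mmp13 and Timp1), against 4.91% of all 15593 genes tested, and 0 were called lower, against 7.88% of all. None of the lower genes passed the 1.5-fold threshold, and of these only Mmp14 had an adjusted p under 0.05. Mmp14 had a log2 ratio of -0.50 (Fisher's exact test, adjusted p = 6.02e-43). By the same Fisher's exact test Mmp8 had -0.57 (adjusted p = 0.0712), Timp3 -0.52 (adjusted p = 0.0938) and Mmp9 -0.23 (adjusted p = 0.688). At an unadjusted p under 0.05 Fisher's exact test had 3 of the 9 genes lower, and the share of all genes at that p was not counted. The edgeR exact test, assuming a biological coefficient of variation of 0.2, also called 0 lower. With the 1.5-fold threshold it called 80 of all 15593 genes lower. The 9 genes had a median log2 ratio of 0.17, beside -0.03 for all genes tested.

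Mmp13, the collagenase that cuts fibrillar collagen, showed the widest change of the 9. Its reads went from 15 (0.51 FPKM) untreated to 455 (15.04 FPKM) with IL-4 in the wild-type, a 29.8-fold rise in its share of the reads (interval 17.8 to 53.6; Fisher's exact test, adjusted p = 1.83e-110). In the knockout libraries its reads went from 10 (0.34 FPKM) to 280 (9.46 FPKM), a 28.0-fold rise (interval 15.01 to 59.1; Fisher's exact test, adjusted p = 3.25e-68). Both IL-4 libraries lay far above both untreated libraries, and neither pair of intervals overlapped. On the log2(FPKM + 0.1) scale, which understates low genes, the changes were 4.63 and 4.44. The knockout response minus the wild-type response was -0.11 on the log2 scale (interval -1.26 to 1.04), so a difference of the responses within that interval was not detectable at 10 and 15 untreated reads.

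Mmp12 rose 1.55-fold with IL-4 in the wild-type, from 30301 to 47878 reads (interval 1.53 to 1.57). In the knockout it was 1.45-fold higher with IL-4, from 24337 to 35332 reads (interval 1.43 to 1.48), which is under the 1.5-fold threshold. The values lie just inside and just outside that threshold. The response of the knockout minus that of the wild-type was -0.09 on the log2 scale (interval -0.13 to -0.06), under the 1.5-fold needed for a call. With a biological coefficient of variation of 0.2 assumed between mice the wild-type change of Mmp12 lost its call.

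Timp1, an inhibitor known to be induced by cytokines and injury, rose in both genotypes from very few reads. It had 12 reads untreated and 57 with IL-4 in the wild-type (1.23 and 5.74 FPKM), a 4.66-fold rise (interval 2.47 to 9.54; Fisher's exact test, adjusted p = 3.20e-07). In the knockout it had 10 and 61 reads (1.03 and 6.32 FPKM), a 6.10-fold rise (interval 3.10 to 13.4; Fisher's exact test, adjusted p = 3.41e-09). The 2 IL-4 libraries were high and the 2 untreated libraries low, with no overlap of intervals between them. The Timp1 gene (chrX:20870166-20874737, plus strand, GENCODE M21 on GRCm38) lies within Syn1 on the opposite strand, and the 2 genes share 0 exonic bases there. Syn1, known for synaptic vesicles in neurons, had 149, 393, 182 and 592 reads, and was called higher with IL-4 in both genotypes (log2 ratios 1.35 and 1.68). Whether the counting used strand is not given in the sources used here, and the part of Syn1 reads in the Timp1 values was not tested.

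The second comparison asked the same of the knockout libraries. Of the 9 genes, 3 were called higher with IL-4 (Mmp13, Timp1 and Timp3), against 5.29% of all 15738 genes tested, and 1 was called lower (Mmp9), against 4.03% of all. The 9 genes had a median log2 ratio of 0.54, beside 0 for all genes tested. Mmp19 was 1.48-fold higher with IL-4 in the knockout (interval 1.36 to 1.61; 900 and 1330 reads) and 1.12-fold higher in the wild-type (interval 1.02 to 1.24; 829 and 950 reads), both short of the 1.5-fold threshold. The Mmp19 gene shares 789 exonic bases with Tmem198b on the opposite strand, which had 249, 356, 269 and 410 reads. Mmp14 was 0.706 times its untreated share in the wild-type (interval 0.671 to 0.741) and 0.877 times in the knockout (interval 0.831 to 0.925), again short of the threshold. Timp2 was 1.13 times its untreated share in the wild-type (interval 1.10 to 1.17) and 1.07 times in the knockout (interval 1.04 to 1.10).

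**Figure D2:**
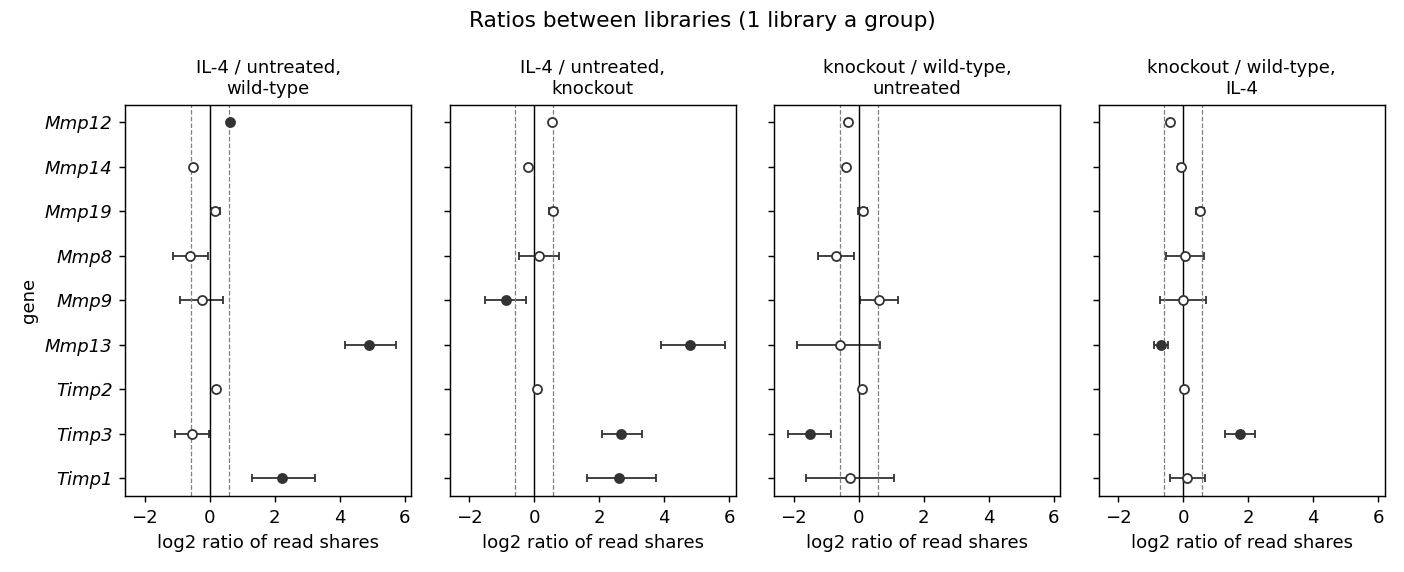
Log2 ratio of the share of reads between 2 libraries for each gene in the 4 comparisons, with 95% exact intervals; filled points were called by Fisher's exact test and a fold above 1.5, and dashed lines stand at 1.5-fold. Mmp13 and Timp1 are called to the right in both IL-4 panels, and Timp3 is called in 3 of the 4 panels, to the left for knockout against wild-type untreated.

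Mmp9, gelatinase B, and Mmp8, the collagenase known best from neutrophils, were low throughout. Mmp9 had 43, 37, 66 and 36 reads. With IL-4 it fell to 0.546 times its untreated share in the knockout (interval 0.353 to 0.831; Fisher's exact test, adjusted p = 0.0184), while in the wild-type the ratio was 0.844 (interval 0.529 to 1.34). The difference of the responses was -0.62 on the log2 scale (interval -1.48 to 0.24), which was not called. The Mmp9 call was lost under 4 of 8 alternatives: a pseudocount of 1 FPKM, where the log2 ratio was -0.50, a threshold of 2-fold, and biological coefficients of variation of 0.2 and 0.4. Mmp8 had 74, 50, 46 and 51 reads and was called in 0 of the 4 comparisons, with ratios between 0.622 and 1.11. Of 11 neutrophil markers 5 were not listed in any library, among them S100a9 and Ly6g; Elane had at most 1 read and Mpo at most 2. The summed level of the list was 52.7, 83.7, 49.5 and 87.2 FPKM, of which Csf3r, which macrophages also express, gave 41.3, 76.0, 40.8 and 76.3 FPKM. S100a8 had 35, 21, 21 and 30 reads, Cxcr2 84.1, 83.9, 104 and 105 reads, and Ltf 2, 3, 11 and 6 reads. The part of these cells in the Mmp8 and Mmp9 values was not tested.

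The third comparison, knockout against wild-type without IL-4, asked how the genotypes differed at rest. Of the 9 genes, 0 were called higher, against 0.839% of all 15623 genes tested, and 1 was called lower (Timp3), against 0.742% of all. At an unadjusted p under 0.05 Fisher's exact test had 2 of the 9 genes higher, and the share of all genes at that p was not counted. The edgeR exact test, assuming a biological coefficient of variation of 0.2, also called 0 higher. With the 1.5-fold threshold it called 10 of all 15623 genes higher. The median log2 ratio was -0.31, beside -0.00385 for all genes tested. Mmp12 was 0.804 times its wild-type share (interval 0.790 to 0.817) and Mmp14 0.762 times (interval 0.726 to 0.800), both short of the 1.5-fold threshold. Mmp13 had 10 reads in the knockout and 15 in the wild-type, and their intervals overlapped.

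The fourth comparison, knockout against wild-type under IL-4, had 1 gene called higher (Timp3), against 3.05% of all 15573 genes tested, and 1 called lower (Mmp13), against 0.764% of all. The 9 genes had a median log2 ratio of 0.03, beside 0.02 for all genes tested. Mmp13 fell to 0.628 times its wild-type share, from 455 to 280 reads (interval 0.539 to 0.730; Fisher's exact test, adjusted p = 1.32e-08). This call was lost at a threshold of 2-fold and with a biological coefficient of variation of 0.2 assumed. Mmp12 was 0.753 times its wild-type share (interval 0.743 to 0.763) and Mmp19 1.43 times (interval 1.31 to 1.55), and neither passed 1.5-fold. Timp1 had 61 reads in the knockout and 57 in the wild-type, a ratio of 1.09 (interval 0.748 to 1.60). The ratio of Timp2 was 1.02 (interval 0.989 to 1.04). The 4 comparisons share libraries, so they are not independent of one another.

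Timp3, the inhibitor that binds to the extracellular matrix and also restrains ADAM proteases, was the only one of the 9 genes whose IL-4 response was called different between the genotypes, against 2.43% of 13408 genes tested. Its reads were 76.4 in the untreated wild-type, 52.8 in the IL-4 wild-type, 27.5 in the untreated knockout and 173 in the IL-4 knockout, or 1.46, 0.99, 0.53 and 3.31 FPKM. The untreated knockout library was lowest and the IL-4 knockout library highest. In the knockout Timp3 rose 6.41-fold with IL-4 (interval 4.26 to 10.01; Fisher's exact test, adjusted p = 4.54e-26), while in the wild-type the ratio was 0.684 (interval 0.472 to 0.984) and was not called. Against the wild-type, the knockout share was 0.355 times untreated (interval 0.220 to 0.558; Fisher's exact test, adjusted p = 6.62e-05) and 3.33 times with IL-4 (interval 2.44 to 4.62; Fisher's exact test, adjusted p = 3.55e-15). The knockout response minus the wild-type response was 3.20 on the log2 scale (SE 0.39 from counting, adjusted p = 5.44e-14 over all genes tested). Both knockout against wild-type calls were lost with a biological coefficient of variation of 0.2 assumed. Other differences of responses among the 9 had intervals that left out 0, but were under the 1.5-fold needed for a call. For Mmp14 the difference was 0.31 (interval 0.21 to 0.42) and for Mmp19 0.39 (interval 0.21 to 0.58). For Mmp12 it was -0.09 (interval -0.13 to -0.06) and for Timp2 -0.08 (interval -0.14 to -0.03).

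The expected counts of Timp3 were not whole numbers in any library, as happens where RSEM divides reads between genes. The Timp3 gene (chr10:86300412-86349505, plus strand) lies within Syn3 on the opposite strand and shares 1733 exonic bases with it in GENCODE M21. Syn3 had 13.6, 11.01, 23.8 and 26.2 reads. With the Syn3 reads added to those of Timp3, a setting added after seeing the values, the log2 ratio of read shares for IL-4 in the knockout was 1.96 in place of 2.68, and in the wild-type -0.52 in place of -0.55. For knockout against wild-type it was -0.82 in place of -1.49 untreated and 1.67 in place of 1.74 with IL-4.

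Timp3 was set beside markers of fibroblasts, the collagen-making cells of connective tissue, which shared its pattern only in part. All 7 fibroblast markers were listed, and their summed level was 46.1, 39.0, 23.4 and 43.3 FPKM, lowest in the untreated knockout library as for Timp3. Of the 7, 5 were called lower in the untreated knockout than in the untreated wild-type library (Col1a1, Col1a2, Col3a1, Dcn and Pdgfra). The count called higher was 0, and over all genes 0.742% were called lower and 0.839% higher. With IL-4, 2 of the 7 rose in the knockout, Col1a1 from 4.81 to 15.4 FPKM and Col1a2 from 5.53 to 12.8 FPKM. In the wild-type 0 rose with IL-4 and 2 fell (Pdgfra and Pdgfrb). The median log2 ratio of the list was -0.85 for knockout against wild-type untreated (all genes -0.00385) and 0.44 for IL-4 in the knockout (all genes 0). Lum was at or under 2 reads in all 4 libraries. Dcn was at 14.4, 13.6, 7.93 and 8.94 FPKM. With IL-4 Dcn was lower in the knockout than in the wild-type library, while Col1a1 was higher. Col3a1 (6.13, 4.67, 2.63 and 3.82 FPKM) and Pdgfra (3.91, 2.5, 2.38 and 2.17 FPKM) were highest in the untreated wild-type library, as Dcn was. Mmp2, gelatinase A, which was chosen after its values were seen, had 21, 8, 8 and 26 reads. Its IL-4 ratio was 0.374 in the wild-type (interval 0.143 to 0.878) and 3.25 in the knockout (interval 1.43 to 8.31), and the difference of the responses was 3.01 on the log2 scale (adjusted p = 0.00394 over all genes tested). Of 6 mesothelial markers 5 were listed, with a summed level of 5.54, 5.92, 2.73 and 3.89 FPKM. The part of these cell types in the Timp3 values was not tested.

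**Figure D3:**
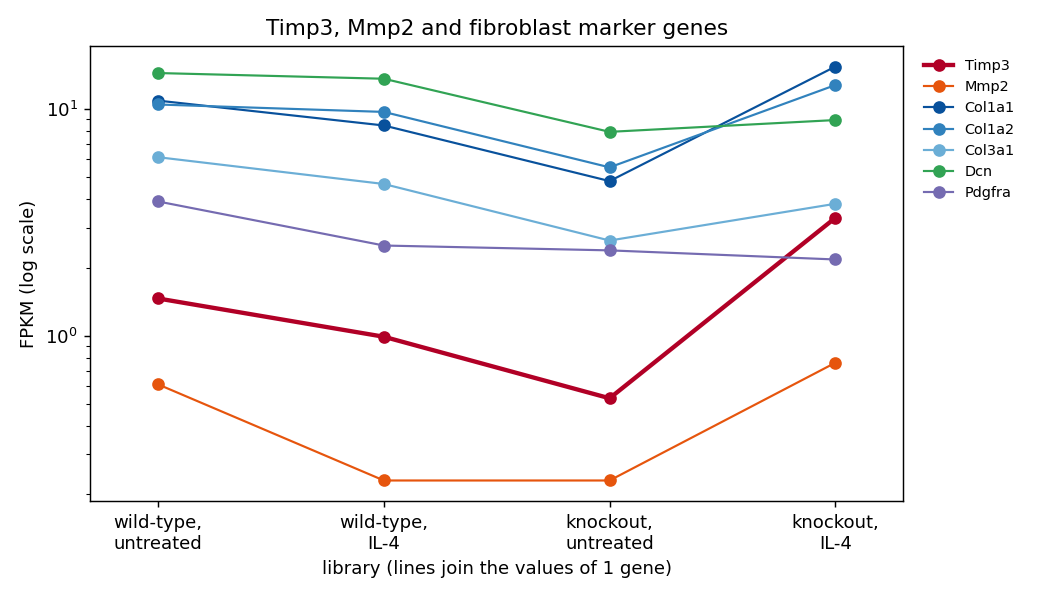
Level in FPKM (log axis) of Timp3, Mmp2 and the 5 fibroblast markers with a mean of at least 1 FPKM in each of the 4 libraries; lines join the values of 1 gene. Timp3, Col1a1, Col1a2, Col3a1 and Dcn were lowest in the untreated knockout library. Timp3 (3.31 FPKM), Mmp2, Col1a1 and Col1a2 were highest in the IL-4 knockout library. Col3a1, Dcn and Pdgfra were highest in the untreated wild-type library, and Pdgfra was lowest in the IL-4 knockout library (2.17 FPKM).

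An additive fit over all 4 libraries by edgeR's quasi-likelihood test took its spread from the departure of the libraries from additivity, with 1 residual degree of freedom. It called 5 of the 9 genes for IL-4, against 25.3% of 11791 genes tested: Mmp12, Mmp13, Mmp19 and Timp1 higher and Mmp14 lower. The log2 changes were 4.86 for Mmp13 (adjusted p = 2.75e-10), 2.41 for Timp1 (adjusted p = 5.84e-05), 0.60 for Mmp12 (adjusted p = 0.000274), 0.38 for Mmp19 (adjusted p = 0.0161) and -0.34 for Mmp14 (adjusted p = 0.0159). Under DESeq2 the calls of Mmp14 and Mmp19 were lost. For genotype the fit called 1 of the 9 genes, against 1.66% of all: Mmp13, lower in the knockout by -0.67 on the log2 scale (adjusted p = 0.0401). That call was lost under DESeq2, which called Mmp12 (log2 change -0.36, adjusted p = 0.0416) instead. Timp3 was called for neither effect here, but it was called for IL-4 with upper-quartile scaling (log2 change 1.05) and with the length trend as an offset (1.16). Under these settings 3376 and 3907 of the 11791 genes were called for IL-4, against 2987 in the main fit.

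The balance of proteases and inhibitors, as summed FPKM of the 6 proteases over that of the 3 inhibitors, was 3.82 in the untreated wild-type, 4.86 in the IL-4 wild-type, 2.87 in the untreated knockout and 3.67 in the IL-4 knockout library. Mmp12 gave between 86.3% and 91.7% of the protease sum, and Timp2 between 96.4% and 99.4% of the inhibitor sum. Without Mmp12 the ratio was 0.511, 0.405, 0.395 and 0.401. These are sums of transcript levels with no replicate, and no test was made on them.

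Mmp13, Mmp12 and Mmp8 lie in a cluster of 10 Mmp genes that spans 427 kb of chromosome 9 (chr9:7272514-7699585). Of the 10, 7 were listed, and 4 had at least 10 reads in a library: Mmp13, Mmp12, Mmp8 and Mmp27. Mmp3 and Mmp10, the stromelysins, and Mmp7, matrilysin, had at most 2 reads in any library, which is under the floor of 3 reads. Mmp13 at one end of the cluster had a 29.8-fold rise with IL-4 in the wild-type, Mmp12 at 71.9 kb from it a 1.55-fold rise, and Mmp8 at 285.9 kb a ratio of 0.663 (interval 0.453 to 0.962) that was not called. Mmp27, next to Mmp8 and chosen by the rule for the pathway lists, fell from 64 to 30 reads with IL-4 in the wild-type, to 0.460 times its untreated share (interval 0.288 to 0.720; Fisher's exact test, adjusted p = 0.00178). In the knockout it had 54 and 31 reads, a ratio of 0.574 (interval 0.357 to 0.909) that was not called. Outside the cluster on the Mmp7 side, Tmem123 was called higher with IL-4 in both genotypes (log2 ratios 0.66 and 0.87), and on the Mmp13 side Dcun1d5 was not called in either (0.53 and 0.27).

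**Figure D4:**
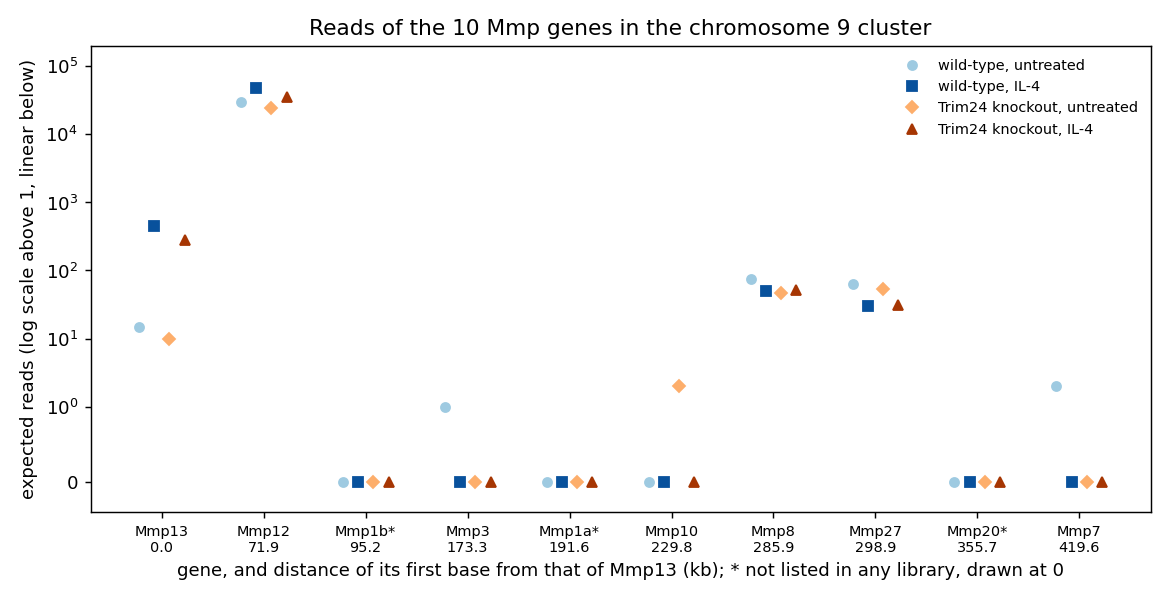
Expected reads of the 10 Mmp genes of the chromosome 9 cluster in the 4 libraries, in gene order with the distance of each first base from that of Mmp13 in kb; the axis is logarithmic above 1 read and linear below. Reads fall on Mmp13, Mmp12, Mmp8 and Mmp27, and Mmp13 differs most between untreated (15 and 10 reads) and IL-4 libraries (455 and 280 reads).

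The other 17 Mmp genes were mostly near the floor. Of these, 13 were listed and 2, Mmp24 and Mmp27, averaged at least 1 FPKM, and their summed level was 6.09 to 8.65 FPKM. In the IL-4 wild-type comparison 2 of the 17 fell (Mmp2 and Mmp27) and 0 rose; the call of Mmp2 was lost with the trend over transcript length removed. In the IL-4 knockout comparison 1 rose (Mmp2) and 0 fell. The median log2 ratios of the list were -0.12 and 0 in these comparisons, beside -0.03 and 0 for all genes. Of 4 other inhibitors of metalloproteinases, Timp4, Reck, A2m and Pzp, all had at most 6 reads in any library, and 0 were called in any comparison.

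Of 13 genes for the activation of proenzymes by plasmin and by furin-like proteases, 7 averaged at least 1 FPKM, and the list had 0 called with IL-4 in the wild-type (median log2 ratio 0.05, all genes -0.03) and 1 higher in the knockout (median 0.05, all genes 0). That gene, Furin, which cuts the propeptide of membrane-type metalloproteinases such as Mmp14 and of several ADAM proteases, was at 39.7, 53.3, 36.3 and 69.9 FPKM. It rose 1.91-fold with IL-4 in the knockout (interval 1.80 to 2.03) and was 1.33-fold higher in the wild-type (interval 1.26 to 1.42). The difference of these responses was 0.52 on the log2 scale, under the 1.5-fold needed for a call. Serpinb2, an inhibitor of the plasminogen activator urokinase, was lower in the knockout both untreated (38 and 9 reads, 0.237 times, interval 0.101 to 0.499) and with IL-4 (34 and 9 reads, 0.270 times, interval 0.114 to 0.575). Urokinase itself, Plau, was at 12.7, 12.6, 12.6 and 8.42 FPKM and was called in 0 comparisons.

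Of 5 genes for the docking and uptake of metalloproteinases, 1 rose and 2 fell with IL-4 in the wild-type (median log2 ratio -0.53, all genes -0.03) and 1 rose and 0 fell in the knockout (median 0.01, all genes 0). Cd44, a surface receptor on which Mmp9 and Mmp14 can dock, rose with IL-4 in both genotypes, 2.03-fold in the wild-type (interval 1.94 to 2.13) and 1.995-fold in the knockout (interval 1.91 to 2.09). Lrp1, the endocytic receptor that clears metalloproteinases and their complexes with Timps, was at 130, 55.7, 134 and 106 FPKM. It fell to 0.430 times its untreated share with IL-4 in the wild-type and was 0.788 times in the knockout. With the trend over transcript length removed, the log2 ratio of Lrp1 went from -1.22 to -0.50 in the wild-type and from 0.93 to 0.31 for knockout against wild-type under IL-4, and its calls in both comparisons were lost. Mrc2, an endocytic collagen receptor, was called lower with IL-4 in the wild-type at 32 and 12 reads. Among 14 ADAM and ADAMTS proteases, relatives of the metalloproteinases of which Timp3 inhibits several, 1 rose and 2 fell with IL-4 in the wild-type (list median log2 ratio -0.35, all genes -0.03) and 2 rose and 0 fell in the knockout (list median 0.03, all genes 0). Adam8, a surface protease of myeloid cells, rose 2.36-fold in the wild-type (interval 2.27 to 2.45) and 2.24-fold in the knockout (interval 2.15 to 2.32). Adam9 was at 35.6, 52.2, 34.4 and 56.6 FPKM and rose 1.65-fold with IL-4 in the knockout (interval 1.55 to 1.76), beside 1.47-fold (interval 1.38 to 1.56) in the wild-type, which did not pass 1.5-fold.

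For the 2 genes of the 9 that averaged at least 5 FPKM and were called in a comparison, the genes of most similar pattern over the 4 libraries were sought among 7464 genes, by Euclidean distance of log2(FPKM + 0.1) after centring each gene. For Mmp12 the nearest were Mrps28 (distance 0.058; 14.6, 23.1, 11.4 and 17.5 FPKM), Uxt (0.085) and Creb3l1 (0.116). For Mmp13 they were Ms4a4a (distance 0.518; 1.51, 48.3, 1.66 and 24.3 FPKM), Socs1 (0.597; 0.83, 26.1, 0.98 and 22.9 FPKM) and Scimp (0.846; 1.05, 17.3, 1.05 and 17.9 FPKM). Socs1 is a feedback inhibitor of cytokine signalling. All 3 genes near Mmp13 were low in both untreated libraries and high in both IL-4 libraries, as Mmp13 was. This likeness follows from their choice as the nearest genes. These distances describe 4 libraries and carry no test.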

How the data were processed

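Total RNA of peritoneal macrophages was sequenced in 4 libraries, grouped as the labels give genotype and treatment. The authors mapped reads to GRCm38 (mm10) with Bowtie and deposited, per gene, the RSEM expected count and the FPKM; tool versions and strand use are not given in the sources used here. Genes that are not listed in a library were set to 0. Expected counts were rounded to whole numbers for the tests. Fisher's exact test (two-sided, Benjamini-Hochberg adjusted over the genes with a read) compared 2 libraries at a time; calls needed an adjusted p below 0.05 and more than 1.5-fold on log2(FPKM + 0.1). Differences of IL-4 responses used log2(count + 0.5) with counting error in a normal approximation, over genes with at least 10 reads. An additive fit used edgeR 4.0.16 (R 4.3.3, TMM, filterByExpr, quasi-likelihood test); limma 3.58.1 and DESeq2 1.42.0 gave alternatives, and Fisher's test and lowess ran in Python 3.11.15 with scipy 1.17.1 and statsmodels 0.14.6. Folds in the text are ratios of read shares with exact conditional intervals. The fits were tested on simulated counts. Depth was 11026033 to 11250099 expected reads per library.

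The members and lists were chosen with earlier results of these data known. Named genes were the 9 members, Trim24 and, per pathway list, up to 4 genes called in a pair and averaging 1 FPKM or more. The 3 genes nearest to each called member averaging 5 FPKM or more were named too. Mmp2, Mrc2, Plau, Mmp24, Adam19, Adamts4, Syn1, Syn3, the marker genes and the neighbours of the chromosome 9 cluster were named in addition. Symbols and promoter windows came from RefSeq (GRCm38.p6), where 16365 of 16403 gene IDs matched, and gene extents and exons from GENCODE M21. Alternatives were other pseudocounts, filters, scalings, folds, removal of a trend over transcript length, and an exact test in edgeR that assumed a biological coefficient of variation of 0.2 or 0.4.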

Additional observations from a re-analysis of the deposited data

Results flagged for a closer look

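The IL-4 response of Timp3 differed between the genotypes by a test of the difference itself, with the knockout response higher by 3.20 on the log2 scale (interval 2.43 to 3.97 from counting error), at 27.5 to 173 reads a library. The response of Mmp2 differed by 3.01 in the same direction, at 8 to 26 reads a library, and that of the fibroblast marker Col1a1 by 2.04, at 319 to 1020 reads a library. That of Lrp1 differed by 0.87, and by 0.38, no longer called, when the trend over transcript length was removed, under which its other calls were lost too. With 1 library per group, the test covers counting error only. Mmp2 and Col1a1 were chosen after their values were seen. Among the other fibroblast markers averaging at least 1 FPKM, IL-4 log2 ratios in wild-type and knockout were -0.11 and 1.19 for Col1a2. They were -0.39 and 0.52 for Col3a1, -0.08 and 0.17 for Dcn, and -0.63 and -0.13 for Pdgfra.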

How the results depend on the processing

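Of 414 values of single genes recomputed under the alternatives, 377 kept their direction and their side of the threshold, 24 lost a call, 9 gained one and 4 changed sign, none of the 4 called. The sign changes were for Timp2 in knockout against wild-type under IL-4 (-0.0357 with the length trend removed) and Timp1 in the additive genotype effect (-0.0366 with DESeq2, -0.0492 with limma and -0.0082 with upper-quartile scaling).

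An assumed biological coefficient of variation of 0.4 left Mmp13 as the 1 gene called with IL-4 in each genotype. For knockout against wild-type it left 0 untreated and 0 under IL-4, as did 0.2. A threshold of 2-fold left 1 gene, Timp3, for knockout against wild-type under IL-4. In the additive fit the IL-4 effect had 3 genes called with DESeq2 and 3 with all genes with a read in place of 5. It had 6 with upper-quartile scaling (Timp3 added) and 7 with the length offset (Timp2 and Timp3 added). Over all 11791 genes tested the IL-4 calls rose too, from 2987 to 3376 with upper-quartile scaling and to 3907 with the length offset. The genotype effect had 0 with all genes with a read, 2 with upper-quartile scaling and 4 with the length trend as an offset in place of 1. The cause of these changes was not tested.

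Over all genes, an assumed coefficient of variation of 0.2 took the calls from 1994 to 258 for IL-4 in the wild-type, from 1466 to 272 in the knockout, from 247 to 15 for knockout against wild-type untreated and from 594 to 21 under IL-4. A coefficient of 0.4 left 45, 33, 7 and 11, and a 2-fold threshold 861, 711, 128 and 171. A pseudocount of 1 left 156 and 322 for knockout against wild-type untreated and under IL-4. Removal of the length trend left 293 under IL-4 and 101 of 326 for the difference of responses. It moved the share of calls that were higher from 38.4% to 50.1% for IL-4 in the wild-type, from 85.3% to 72.3% for the difference of responses and from 77.6% to 63.9% for the additive genotype effect. For the additive fit, IL-4 calls went from 2987 to 1223 with DESeq2 and 1675 with all genes with a read. They rose to 3207 with limma, 3376 with upper-quartile scaling and 3907 with the length offset. Genotype calls went from 196 to 65, 24, 393 (limma), 494 (upper quartile) and 624 (length offset).

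No paired analysis was possible because each group holds 1 library, and no library could be left out. Depth limits Mmp13 and Timp1, which had 10 to 15 reads in the untreated libraries.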
